A study of Mus musculus with 2 samples.

Results

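The cytochrome P450 genes are described here in hepatocytes that carried a graded amount of NRAS. All gene rows whose symbol opens with Cyp and a digit were taken, leaving out symbols that end in -ps, which mark pseudogenes. The rule found 101 of 31053 gene rows. Of these, 66 had at least 20 UMIs (unique molecular identifiers, each counting 1 captured transcript molecule) over all barcodes and are described below, 17 had between 1 and 19 UMIs and 18 had none. Genes of steroid hormone and brain sterol metabolism were among the rare ones, with 69 UMIs of Cyp17a1, 11 of Cyp46a1 and 6 of Cyp11a1.

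The data were single-cell RNA counts from the livers of 3 female C57BL/6 mice, 6 to 8 weeks old, taken on day 6 after hydrodynamic tail-vein injection, which delivers DNA to some of the hepatocytes. Every mouse received a transposon vector with a CAGGS promoter, a strong promoter that is not cell type specific, driving NRAS and the fluorescent protein mVenus, together with a transposase. In 2 mice the insert encoded NRAS(G12V), an oncogenic RAS, and in 1 mouse it encoded NRAS(G12V/D38A), whose changed effector loop made it the non-oncogenic control. Cells of each mouse were labelled with an antibody hashtag, sorted for mVenus and pooled into 1 run. The deposited table and the study's methods disagree on which hashtag marks the control mouse: hashtag 1 in the table and hashtag 3 in the methods. Mice are therefore named by hashtag, NRAS(G12V) was not compared with NRAS(G12V/D38A), and leaving out hashtag 1 or hashtag 3 gives the NRAS(G12V) mice of either source. At the highest Nras levels hashtag 3 had too few cells to be used, so without hashtag 1 only hashtag 2 remains there.

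Hepatocytes were barcodes in which Alb, Apoa1, Apoa2, Ttr and Fgb together made at least 1% of the gene UMIs. Of 13151 barcodes with 142080194 gene UMIs, 8509 hepatocytes were kept after filtering, and 2306 of them with at least 10000 UMIs are called deep (median 39419 UMIs). The 6203 shallow hepatocytes had a median of 2606 UMIs. Hashtags were called in 231, 1129 and 25 deep hepatocytes for hashtags 1, 2 and 3, and 851 had no call. The calls depend on the rule. Over all barcodes the method used, HTODemux, gave 1360, 2837 and 1285 for hashtags 1, 2 and 3. A fixed rule (at least 10 hashtag UMIs, at least 80% of them from 1 hashtag) gave 2780, 1506 and 742. Values per mouse rest on the HTODemux calls, so which cells belong to which mouse is not settled. Hashtag 3 stands apart: the 7 endothelial markers Ptprb, Stab2, Clec4g, Kdr, Oit3, Fcgr2b and Dnase1l3 summed to 861 CPM (UMIs per 1000000 UMIs) in its deep hepatocytes against 73.7 CPM in hashtag 1 and 14.9 CPM in hashtag 2. Level differences between genes are given in CPM with no correction for length, because the 3′ assay counts each molecule once.

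Cytochrome P450 enzymes are haem proteins that insert an oxygen atom into their substrates, using electrons passed on by a reductase or by ferredoxin. In the liver, families 1 to 3 handle drugs, toxins and steroids, family 4 oxidizes fatty acids and eicosanoids, and families 7, 8, 27, 39 and 51 make cholesterol and bile acids. Many P450 genes are known to be zoned along the liver lobule, with Cyp2e1 and Cyp1a2 near the central vein and Cyp2f2 near the portal tract, and several in mice differ by sex.

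A few genes supplied most of the P450 transcripts. In deep hepatocytes the 66 genes together had 2451 CPM, and the 12 most abundant made 80.3% of it. Cyp2a4, a steroid hydroxylase that is more abundant in female mice, led with 555 CPM (95% exact Poisson interval 551 to 560, counting error only), with 382 CPM in hashtag 1, 605 CPM in hashtag 2 and 136 CPM in hashtag 3. Cyp2d10 followed with 362 CPM, Cyp51, the lanosterol demethylase of cholesterol synthesis, with 192 CPM, Cyp2c68 with 168 CPM, Cyp2c70, which hydroxylates bile acids to muricholic acids, with 138 CPM, and Cyp2a5, the coumarin hydroxylase, with 126 CPM. Cyp2d26, Cyp2e1, Cyp3a13, Cyp2a12, Cyp2j6 and Cyp2d22 completed the 12, between 95.6 and 47.7 CPM. In all, 6 genes had at least 100 CPM, 26 had 10 to 100 CPM, 17 had 1 to 10 CPM and 17 had under 1 CPM.

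Genes known to differ by sex in mouse liver were found on both sides. The female-typed Cyp2b9 and Cyp2b13 had 10.9 and 2.27 CPM in deep hepatocytes. The male-typed Cyp4a12a and Cyp4a12b had 5 and 1 UMIs over all barcodes, while Cyp2d9, also male-typed, had 2039. Cyp3a41a and Cyp3a41b, which are also female-typed, were listed at 0 UMIs. All read-length windows of 91 bases in the last 500 bases of these 2 genes occur unchanged in the other, so their zeros say nothing about expression. In the same search 22 of the 66 described genes shared at least 1 such window with another gene, led by Cyp2c40 (49.3% of its windows), Cyp2d10 (33.9%) and Cyp2c68 (27.8%). Each share is that of the gene's annotated transcript with the most shared windows. The counts of these 22 genes are therefore uncertain, but the shares do not measure by how much. Cyp2d9 was among the 22 (23.7%), and Cyp2d10 was 1 of the genes it shared windows with.

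Most of the P450 genes that could be tested fell as Nras rose. Deep hepatocytes were split at the 25th, 50th, 75th and 90th percentile of Nras (28.7, 85.8, 312 and 1591 CPM) into bins 1 to 5 of 577, 576, 576, 346 and 231 cells. The share of cells with an mVenus UMI, the marker on the same construct, was 5.72, 13.2, 34.2, 84.4 and 96.5%. The 66 genes together had 3279, 3024, 2316, 1846 and 1230 CPM from bin 1 to bin 5. In hashtag 1 the sum was 2319 CPM in bin 1 and 1325 CPM in bin 5, and in hashtag 2 it was 3564 and 1125 CPM, so that both mice were lower in bin 5.

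UMIs were summed per mouse and bin and tested by edgeR's quasi-likelihood test with the mouse as a block and Benjamini-Hochberg adjustment over all genes. A gene could enter this test through the bin where it was high, so the 44 P450 genes with enough counts are not all members. Of these 44, 29 were lower and 1 was higher in bin 5 than in bin 1 at an adjusted p under 0.05. Over all 9858 genes tested, 12.8% were called lower and 11.7% higher. The median log2 fold change of the 44 P450 genes was −2.19, against 0.00265 over all genes tested. Of the 29 falls, 12 were of at least 3 on the log2 scale, 12 of 2 to 3 and 5 under 2, and 38 of the 44 genes moved in the same direction in both mice. Bin 5 rests on 35 cells of hashtag 1 and 116 of hashtag 2, since sums of under 5 cells were not used and hashtag 3 entered with bins 1 to 3 only. Without hashtag 1 or without hashtag 2, bins 4 and 5 are therefore sums of 1 mouse. With hashtags called by the fixed rule, bin 5 had 58 cells of hashtag 1 and 47 of hashtag 2. There 31 P450 genes were lower and 1 higher, with 15.7% of all genes lower and 15.5% higher. Leaving out hashtag 3 gave 33 lower and 1 higher of 47 P450 genes, with 14.4% of all genes lower. Leaving out hashtag 1 gave 23 lower and 1 higher of 56, with 3.43% of all genes lower, and leaving out hashtag 2 gave 9 lower and 0 higher of 45, with 2.38% lower.

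**Figure D1:**
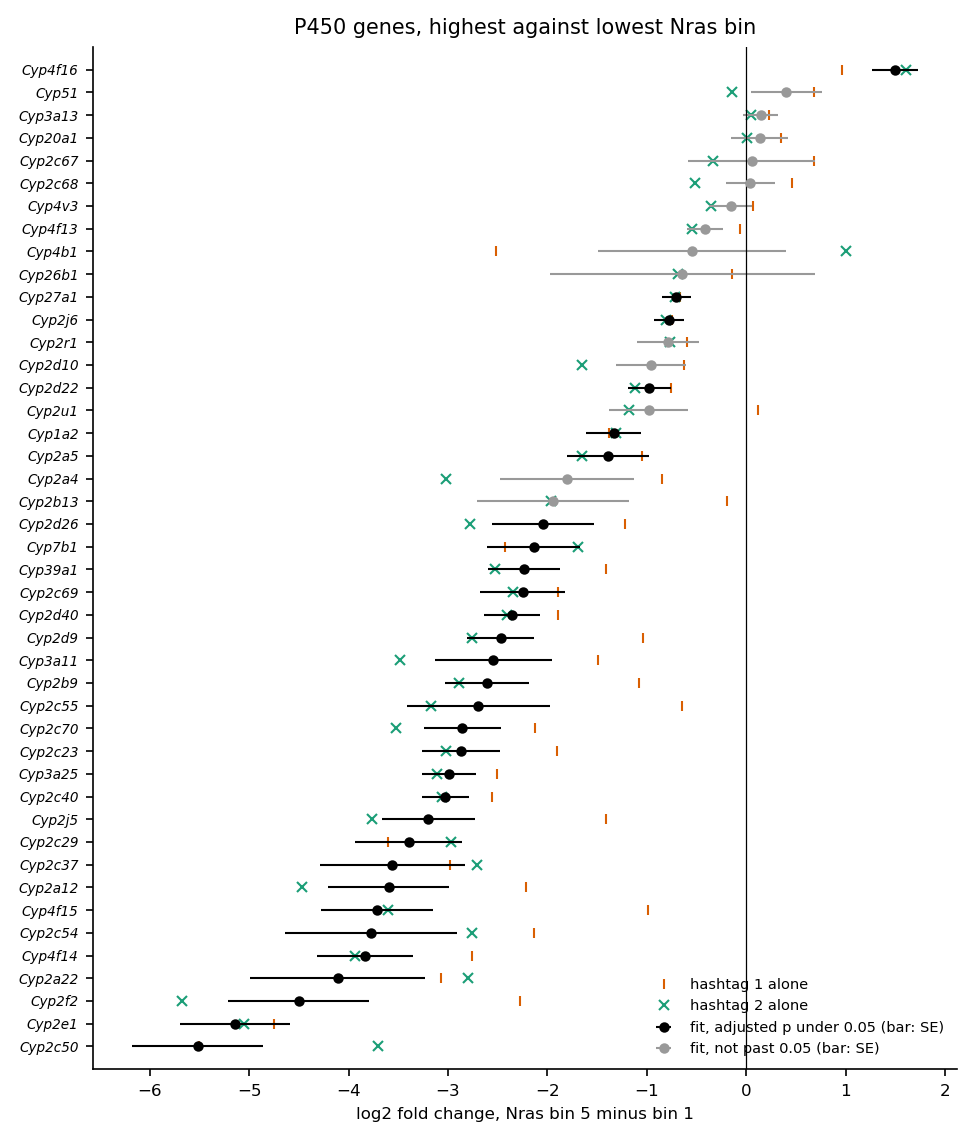
Log2 fold change of the 44 tested P450 genes between the highest and the lowest Nras bin (circles, with the standard error as bars; black, adjusted p under 0.05), and the log2 ratio in hashtag 1 (bars) and hashtag 2 (crosses) alone. The 29 called falls reach −5.52 (Cyp2c50), and Cyp4f16 at 1.50 is the 1 called rise.

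Measures of cell quality and of the hepatocyte rule moved with the bins. Median UMIs went from 17730 to 56090 between bins 1 and 5 in hashtag 1 and from 40735 to 59761 in hashtag 2, and the median mitochondrial share from 4.38 to 8.03% and from 9.12 to 8.05%. The share of the 5 hepatocyte genes themselves had a median of 9.87% in bin 1 and 3.64% in bin 5. Outside the hepatocyte limit lay 17 barcodes with at least 10000 UMIs, Nras above the bin 5 limit and no other marker list, with a P450 sum of 675 CPM. Their part in the P450 falls was not tested. With cells limited to 20000 to 60000 UMIs, 33 of 41 genes were lower and 1 higher, against 13.7% and 12% of all 9393 genes. With each cell thinned to 10000 UMIs, 23 of 35 tested were lower and none was higher (edgeR). Of all 6846 genes tested there, 10.3% were lower and 7.13% higher.

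Cyp2e1, which oxidizes ethanol and other small molecules, showed 1 of the largest falls. In hashtag 1 it had 139, 116, 29.1, 23.4 and 4.61 CPM from bin 1 to bin 5, and in hashtag 2 it had 197, 171, 102, 45.9 and 6.06 CPM. Each step was downward in both mice, and the log2 fold change from bin 1 to bin 5 was −5.14 ± 0.55 (SE; adjusted p = 2.4e-05, edgeR). Cyp2e1 was detected in 28 of 62 and 127 of 267 cells of bin 1 and in 8 of 35 and 21 of 116 cells of bin 5. It stayed past the threshold in all 15 alternatives. In bin 5 it had 9 UMIs in hashtag 1 and 43 in hashtag 2, and the groups of barcodes led by markers of endothelial cells and Kupffer cells or macrophages, which should lack the gene, had 67.9 and 54.8 CPM, above its level in bin 5.

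Cyp2f2, which bioactivates naphthalene, had 40.3, 76.4, 73.7, 19.2 and 7.69 CPM in hashtag 1, while hashtag 2 had 65.9, 61.7, 29.5, 12.9 and 0.987 CPM. Bins 1 to 3 lay above bins 4 and 5 in both mice, and the log2 fold change was −4.50 ± 0.71 (adjusted p = 0.00040, edgeR). A central-vein gene and a portal gene thus both fell in these cells.

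**Figure D2:**
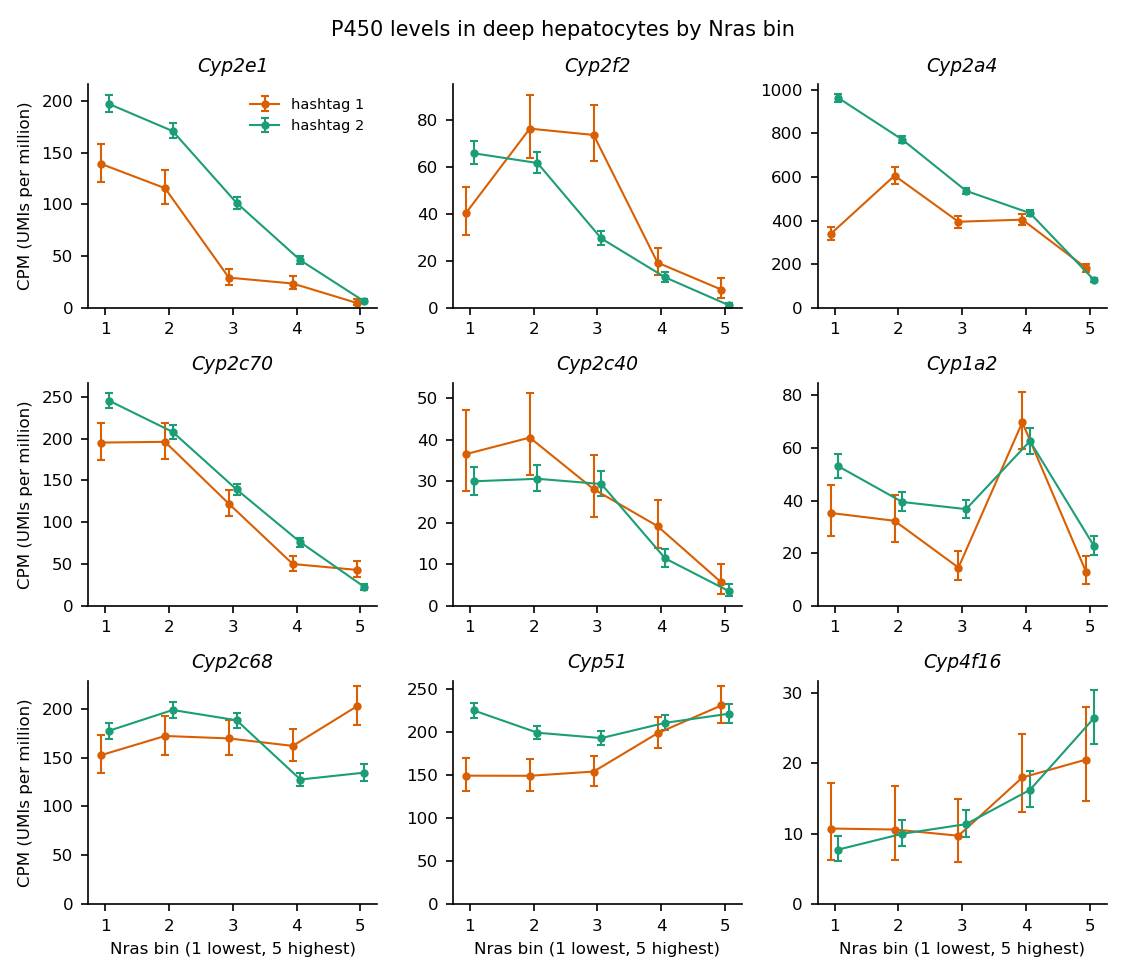
Level in CPM (vertical axis, starting at 0) of 9 P450 genes in the 5 Nras bins of deep hepatocytes (horizontal axis) in hashtag 1 (orange) and hashtag 2 (green). Bars are 95% exact Poisson intervals for counting error. Cyp2e1, Cyp2f2, Cyp2c70 and Cyp2c40 are lowest in bin 5, Cyp2c68 and Cyp51 have no common direction in the mice, Cyp4f16 is higher in bin 5 and Cyp1a2 peaks in bin 4.

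In subfamily 2a all 4 genes had negative fold changes and 3 passed the test. Cyp2a22 and Cyp2a12, a steroid hydroxylase, had log2 fold changes of −4.11 ± 0.88 and −3.60 ± 0.61. Cyp2a4 had 338, 606, 395, 404 and 182 CPM in hashtag 1, compared with 963, 772, 536, 434 and 128 CPM in hashtag 2. The fall of Cyp2a4 was shared by the mice but differed in size, and its log2 fold change of −1.80 ± 0.68 did not pass (adjusted p = 0.069, edgeR). Cyp2a5, which shares 18.5% of its windows with Cyp2a4 and a pseudogene, passed at −1.39 ± 0.41 (adjusted p = 0.024, edgeR). In deep hepatocytes without a hashtag call, which were in no fit, Cyp2a5 had 115 CPM in bin 1 and 166 CPM in bin 5, the opposite direction. It was the exception among the 30 called genes: in those 226 and 72 cells the other 29 had the direction of the fit. The cells came from the same pool of mice, and 38 of all 44 tested P450 genes were lower in bin 5 there.

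Subfamily 2b, known as targets of the receptor CAR, had 2 tested genes. Cyp2b9 fell by 2.60 on the log2 scale (SE 0.42), and Cyp2b13 had −1.95 ± 0.76 without passing (adjusted p = 0.080, edgeR). Cyp2b10, the classical target of CAR, had 19 UMIs over all barcodes. In subfamily 2d 4 of 5 tested genes were lower: Cyp2d9 (−2.47), Cyp2d40 (−2.36), Cyp2d26 (−2.04) and Cyp2d22 (−0.97). Cyp2d10, the most abundant of them, had −0.96 ± 0.35 and did not pass (adjusted p = 0.066, edgeR). The sum of the 8 described 2d genes was 727 CPM in bin 1 and 250 CPM in bin 5 of all deep hepatocytes. In subfamily 2j, which makes epoxides of arachidonic acid, Cyp2j5 fell by 3.20 and Cyp2j6 by 0.78 on the log2 scale.

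In subfamily 3a, which metabolizes a wide range of drugs and steroids, Cyp3a25 and Cyp3a11 fell by 2.99 (SE 0.27) and 2.54 (SE 0.59). Cyp3a25 had 65.6, 60.5, 44.6, 14.6 and 10.8 CPM in hashtag 1, while hashtag 2 had 36.5, 47.2, 28.7, 13.4 and 4.23 CPM, with both mice lower in bins 4 and 5 than in bins 1 to 3. Cyp3a13 differed from them. It had 58.0 and 65.6 CPM in bins 1 and 5 of hashtag 1 and 62.2 and 69.6 CPM in hashtag 2, with a log2 fold change of 0.15 ± 0.17 (adjusted p = 0.61, edgeR).

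Family 4 held both directions. Cyp4f14 and Cyp4f15, which hydroxylate leukotrienes and fatty acids, fell by 3.84 (SE 0.48) and 3.71 (SE 0.56) on the log2 scale. Cyp4f13 and Cyp4v3, a fatty acid hydroxylase, had −0.41 ± 0.18 and −0.16 ± 0.22 and did not pass. Cyp4f16 was the called rise: it had 10.7, 10.6, 9.70, 18.0 and 20.5 CPM in hashtag 1, compared with 7.73, 9.97, 11.3, 16.2 and 26.4 CPM in hashtag 2. Bins 4 and 5 lay above bins 1 to 3 in both mice, and the log2 fold change was 1.50 ± 0.23 (adjusted p = 0.00033, edgeR). Cyp4f16 was detected in 13 of 62 and 68 of 267 cells of bin 1 and in 21 of 35 and 81 of 116 cells of bin 5. It did not pass in 2 of 15 alternatives, where hashtag 2 was left out or cells were thinned. The peroxisome proliferator targets Cyp4a10, Cyp4a14 and Cyp4a31 had under 1 CPM in deep hepatocytes and were not tested.

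Among the sterol and bile acid genes, Cyp39a1 and Cyp7b1, both oxysterol 7α-hydroxylases, were lower, with log2 fold changes of −2.24 ± 0.36 and −2.14 ± 0.47. Cyp27a1, the mitochondrial sterol 27-hydroxylase, fell by 0.70 (SE 0.15; adjusted p = 0.0029, edgeR). Cyp7a1, the rate-limiting enzyme of bile acid synthesis, and Cyp8b1, which directs it to cholic acid, were too low to test, with 41 and 9 UMIs in bin 1 of all deep hepatocytes and 0 and 0 UMIs in bin 5. Cyp51 had 149, 149, 154, 199 and 231 CPM in hashtag 1, while hashtag 2 had 225, 199, 193, 211 and 221 CPM. Its log2 fold change of 0.40 ± 0.36 did not pass (adjusted p = 0.47, edgeR).

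Of the other vitamin and orphan genes, Cyp2r1, a vitamin D 25-hydroxylase, had −0.79 ± 0.31 (adjusted p = 0.082, edgeR), and Cyp20a1, an orphan P450, had 0.13 ± 0.28. Cyp2u1 had −0.98 ± 0.39 with opposite signs in the mice. In all, 22 of the 66 described genes were too low to test, none above 2.50 CPM in deep hepatocytes, and 17 of them had a lower and 5 a higher CPM in bin 5 than in bin 1.

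The fall was spread over the upper bins. Between neighbouring bins, 0 P450 genes were called from bin 1 to 2 and 0 from bin 2 to 3 (edgeR), where 0% of the 9858 genes were called; at an unadjusted p under 0.05 there were 1 and 7 P450 genes and 486 and 171 genes in all. The median log2 fold change of the 44 P450 genes was −0.05, −0.34, −0.69 and −0.997 over the 4 steps, and 30, 34, 34 and 39 of them had negative values. From bin 3 to 4, with 1.17% of all genes called, Cyp2c40 (−1.02) and Cyp3a25 (−1.21) were lower and Cyp1a2 (1.29) higher. From bin 4 to 5, with 0.142% called (0.122% lower and 0.0203% higher), Cyp2c40 (−1.74) and Cyp1a2 (−1.84) were lower. Without hashtag 3, 5 P450 genes were called in each of these steps (edgeR), beside 302 and 140 of all 10796 genes. Without hashtag 1 or without hashtag 2, bins 4 and 5 are sums of 1 mouse.

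Cyp1a1 and Cyp1b1, the other family 1 genes, had 40 and 18 UMIs over all barcodes. Cyp1a2, which metabolizes caffeine and aromatic amines and is a target of the aryl hydrocarbon receptor, did not follow the slope of the others. It had 35.3, 32.3, 14.5, 69.7 and 12.8 CPM in hashtag 1, compared with 53.0, 39.5, 36.8, 62.6 and 22.8 CPM in hashtag 2, highest in bin 4 in both mice. The rise from bin 3 to 4 (1.29 ± 0.25, adjusted p = 0.033, edgeR) and the fall from bin 4 to 5 (−1.84 ± 0.27, adjusted p = 0.022, edgeR) both passed. Cyp1a2 was detected in 13 of 48, 15 of 43 and 8 of 35 cells of bins 3, 4 and 5 in hashtag 1, a share that was highest in bin 4, and in 106 of 276, 64 of 181 and 27 of 116 cells in hashtag 2, a share that was highest in bin 3 among these bins. Single barcodes supplied 34.7% and 13.3% of the Cyp1a2 UMIs of bin 4 in hashtags 1 and 2. The rise had an adjusted p of 0.33 without the mouse block, 0.16 without hashtag 2 and 0.999 with thinned cells (edgeR), where its log2 fold change was 0.29, and it was 0.65 ± 0.52 without hashtag 1. The fall from bin 4 to 5 likewise missed the threshold in each of these 4 settings. The change from bin 1 to bin 5 (−1.33 ± 0.28) turned to 0.44 ± 0.30 with a hepatocyte limit of 5%.

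The subfamily 2c, which includes hydroxylases of drugs, retinoids and arachidonic acid, had 13 described genes, 11 of them tested and 9 called lower. Cyp2c50 had 18.9, 12.3, 5.82, 0.418 and 0 CPM in hashtag 1, while hashtag 2 had 8.01, 6.62, 3.06, 1.39 and 0.282 CPM (log2 fold change −5.52 ± 0.66, adjusted p = 5.0e-05, edgeR), with 0 and 2 UMIs left in bin 5, so that the size of the fitted value rests on few counts. Cyp2c54, Cyp2c37 and Cyp2c29 were also lower, at −3.77 ± 0.86, −3.56 ± 0.73 and −3.40 ± 0.54. Cyp2c70 had 195, 196, 122, 50.1 and 43.0 CPM in hashtag 1, compared with 246, 208, 139, 76.1 and 22.7 CPM in hashtag 2, a log2 fold change of −2.86 ± 0.39.

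A group of 4 neighbouring 2c genes on chromosome 19 had unlike values. Cyp2c40 (chr19:39767071-39812814, GRCm38, minus strand) had 36.6, 40.5, 28.1, 19.2 and 5.64 CPM in hashtag 1, while hashtag 2 had 30.0, 30.6, 29.4, 11.4 and 3.52 CPM, a log2 fold change of −3.03 ± 0.24, and Cyp2c69 fell by 2.25 (SE 0.43). Cyp2c68 had 153, 172, 170, 162 and 202 CPM in hashtag 1, compared with 177, 199, 188, 128 and 135 CPM in hashtag 2, with no common direction and a log2 fold change of 0.04 ± 0.25 (adjusted p = 0.95, edgeR). Cyp2c67, at 3.06 CPM in deep hepatocytes, had 0.05 ± 0.64. In the 17 barcodes under the hepatocyte limit with the highest Nras, Cyp2c68 had 271 CPM and Cyp2c40 3.54 CPM. These genes share 22.4 to 49.3% of their windows with other genes, so that reads from those windows cannot be assigned to 1 gene. The difference between the genes' changes was not tested.

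The promoters of the 4 genes are shown because they are partly alike in sequence while the levels differed. Each run is the 250 bases before the RefSeq start, 5′ to 3′ on the gene's strand (GRCm38.p6). Capitals mark matches on either strand to 4 motifs. The motif of HNF4, a nuclear receptor of hepatocytes, was spelled CAAAGTCCA. For the C/EBP factors the letters were TTNNGCAA, where N is any base. The core of the dioxin response element, which the aryl hydrocarbon receptor binds, was spelled GCGTG. The box at which the general transcription machinery can assemble was spelled TATAAA. No 2 matches overlap in the runs shown. The promoters of Cyp2e1 and Cyp4f16 are added as those of a gene that fell and of the gene that rose.
Cyp2c40 (chr19:39812815-39813064, minus strand): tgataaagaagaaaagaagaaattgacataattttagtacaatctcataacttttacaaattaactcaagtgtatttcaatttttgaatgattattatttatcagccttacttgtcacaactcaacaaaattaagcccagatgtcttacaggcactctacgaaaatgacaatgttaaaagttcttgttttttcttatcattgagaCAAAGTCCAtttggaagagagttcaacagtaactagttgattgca
Cyp2c69 (chr19:39886770-39887019, minus strand): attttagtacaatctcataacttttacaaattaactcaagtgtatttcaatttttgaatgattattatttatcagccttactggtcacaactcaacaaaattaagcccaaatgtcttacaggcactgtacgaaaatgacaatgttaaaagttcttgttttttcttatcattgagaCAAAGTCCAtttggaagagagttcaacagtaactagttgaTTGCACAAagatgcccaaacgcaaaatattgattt
Cyp2c68 (chr19:39741102-39741351, minus strand): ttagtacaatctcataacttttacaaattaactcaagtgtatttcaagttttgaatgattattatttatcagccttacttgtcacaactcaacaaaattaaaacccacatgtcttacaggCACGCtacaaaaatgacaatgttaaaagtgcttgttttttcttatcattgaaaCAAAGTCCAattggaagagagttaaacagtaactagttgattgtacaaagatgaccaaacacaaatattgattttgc
Cyp2c67 (chr19:39649043-39649292, minus strand): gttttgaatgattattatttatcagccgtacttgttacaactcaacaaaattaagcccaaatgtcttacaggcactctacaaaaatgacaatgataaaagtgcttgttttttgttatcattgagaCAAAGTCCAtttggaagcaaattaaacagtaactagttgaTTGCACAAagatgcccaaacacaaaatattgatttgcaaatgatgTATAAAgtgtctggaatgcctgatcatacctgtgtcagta
Cyp2e1 (chr7:140763569-140763818, plus strand): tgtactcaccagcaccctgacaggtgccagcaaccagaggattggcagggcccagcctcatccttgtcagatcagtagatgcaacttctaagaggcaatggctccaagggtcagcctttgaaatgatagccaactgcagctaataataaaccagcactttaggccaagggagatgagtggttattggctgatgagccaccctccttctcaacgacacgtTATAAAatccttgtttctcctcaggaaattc
Cyp4f16 (chr17:32536307-32536556, plus strand): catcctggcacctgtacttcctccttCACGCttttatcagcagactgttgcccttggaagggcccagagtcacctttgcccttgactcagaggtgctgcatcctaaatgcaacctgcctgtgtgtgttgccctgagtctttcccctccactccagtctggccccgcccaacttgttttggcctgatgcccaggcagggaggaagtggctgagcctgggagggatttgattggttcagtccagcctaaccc
All 4 promoters of the 2c group hold the HNF4 motif, at different distances from the annotated starts, so the windows do not line up base for base. Their identity in global alignments was 91.3% for Cyp2c69 and Cyp2c68, 77.5% for Cyp2c40 and Cyp2c69 and 73.5% for Cyp2c40 and Cyp2c68. Cyp2c67 was less alike, with 63.1% to Cyp2c68, 62.3% to Cyp2c69 and 53.6% to Cyp2c40. Of 55 such windows of 50 described P450 genes in the table, 14.5% held the HNF4 motif, against 0.384% of all 32851 windows, and 41.8% held TATAAA, against 12.4%. The C/EBP motif was in 27.3% against 9.56% and the dioxin response element core in 14.5% against 28.2%. Related genes share promoter sequence, so the windows are not independent. Among genes called lower the HNF4 motif was in 4 of 28 windows and the dioxin response element core in 1 of 28, and among the other tested P450 genes in 2 and 5 of 14. A match of letters is not a binding site.

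Genes that serve P450 enzymes were read from the same fit, in which 12.8% of all genes were lower and 11.7% higher. Of 6 electron donors, Cyb5a (cytochrome b5) and Fdx1 (ferredoxin) fell by 1.31 (SE 0.24) and 0.90 (SE 0.18) on the log2 scale, and Por, the reductase of the microsomal enzymes, had −0.01 ± 0.20 (adjusted p = 0.98, edgeR). Of 9 haem genes, 4 fell, among them Alas1, the first and rate-limiting step of haem synthesis, by 1.36 (SE 0.21), Alad by 1.17 (SE 0.16) and Fech by 0.60 (SE 0.15). Hmox1, which breaks haem down, rose by 1.54 (SE 0.30).

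Of 22 transcription factors and nuclear receptors listed as regulators of P450 genes, 21 were tested, 13 were lower and 1 was higher in bin 5, beside the same 12.8% and 11.7% of all genes. Nr1i3 (CAR), the receptor that controls 2b and 2c genes, fell by 4.43 (SE 0.67). Nr1i2 (PXR), which controls 3a genes, had −1.68 ± 0.28 and Ppara, which controls 4a genes, −1.64 ± 0.21. Nr1h4 (FXR) and Nr0b2 (SHP), which act on bile acid synthesis, had −2.105 ± 0.20 and −1.88 ± 0.29, Onecut1 −2.62 ± 0.35 and Cebpa −1.41 ± 0.20, all past the threshold. Hnf4a had 0.08 ± 0.17 (adjusted p = 0.80, edgeR). Ahr, the aryl hydrocarbon receptor, rose by 1.82 (SE 0.17), with log2 ratios of 1.75 and 1.83 in hashtags 1 and 2. Whether a regulator acted on a P450 gene was not tested.

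P450 genes also differed along the lobule. Deep hepatocytes of bins 1 and 2 were ranked by the share of pericentral UMIs among 12 pericentral and 12 periportal genes, none of them a P450 gene, and of 1152 cells those above the 75th and those below the 25th percentile were summed per mouse. These classes are ranges of a score, not cell types, and 66 cells lay within 1 percentage point of a limit. Only hashtags 1 and 2 had enough cells, with 35 and 146 pericentral-high and 20 and 127 periportal-high cells. Of 45 P450 genes tested, 6 were higher in pericentral-high cells and 6 were lower (edgeR), against 1.12% and 0.613% of all 9303 genes (1.73% in either direction). Here too a gene could enter the test through the class where it was high. Cyp7a1, counted among these calls, had 0 UMIs in periportal-high cells. The median log2 fold change was −0.02 over the 45 genes and 0.01 over all genes.

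Cyp2e1 had 484 and 506 CPM in pericentral-high cells of hashtags 1 and 2 and 3.82 and 19.3 CPM in periportal-high cells, a log2 fold change of 5.21 ± 0.41 (adjusted p = 1.7e-22, edgeR). Cyp1a2 had 132 and 113 CPM against 3.82 and 16.2 CPM (3.29 ± 0.39). Both genes were higher in the pericentral-high cells of both mice. Cyp7a1 had 8.69 and 3.75 CPM in pericentral-high cells and 0 UMIs in periportal-high cells of both mice. Its level was at least 8.95-fold higher, taking 3 UMIs over the periportal-high cells of both mice as the floor. By mouse the bounds were 2.28-fold in hashtag 1 and 6.80-fold in hashtag 2. Cyp2c50 (2.97 ± 0.50), Cyp2c37 (2.55 ± 0.53) and Cyp27a1 (1.22 ± 0.34) were also higher in pericentral-high cells.

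Cyp2f2 had 134 and 184 CPM in periportal-high cells and 14.5 and 2.06 CPM in pericentral-high cells, a log2 fold change of −5.21 ± 0.47 (adjusted p = 1.1e-18, edgeR). Cyp2a4 had 738 and 1201 CPM against 198 and 287 CPM (−2.099 ± 0.33), so that the most abundant P450 gene was a periportal one here. Its near copy Cyp2a5 had the other sign (0.94 ± 0.34) and did not pass (adjusted p = 0.22, edgeR). Cyp2b9 (−1.51 ± 0.41), Cyp2a12 (−1.28 ± 0.35) and Cyp2j6 (−1.22 ± 0.35) were also lower in pericentral-high cells. Cyp26a1, which breaks down retinoic acid, had 4 and 23 UMIs in periportal-high cells and 0 and 3 in pericentral-high cells of hashtags 1 and 2 (−3.13 ± 0.84).

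No tested gene of subfamilies 3a and 2d passed, among them Cyp3a11 and Cyp3a25: Cyp3a11 had 0.28 ± 0.33 and Cyp3a25 0.40 ± 0.33. Of the regulators, Nr1i3 and Ahr were higher in pericentral-high cells (2.94 ± 0.52 and 1.27 ± 0.35). The 2 mice leave 1 residual degree of freedom, and in hashtag 1 pericentral-high cells were shallower (median 14325 against 38563 UMIs) with a lower mitochondrial share (1.46 against 8.98%), whose part in the result was not tested. Without the mouse block 0 P450 genes were called, with 2 of all genes called, and DESeq2 called 5.

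**Figure D3:**
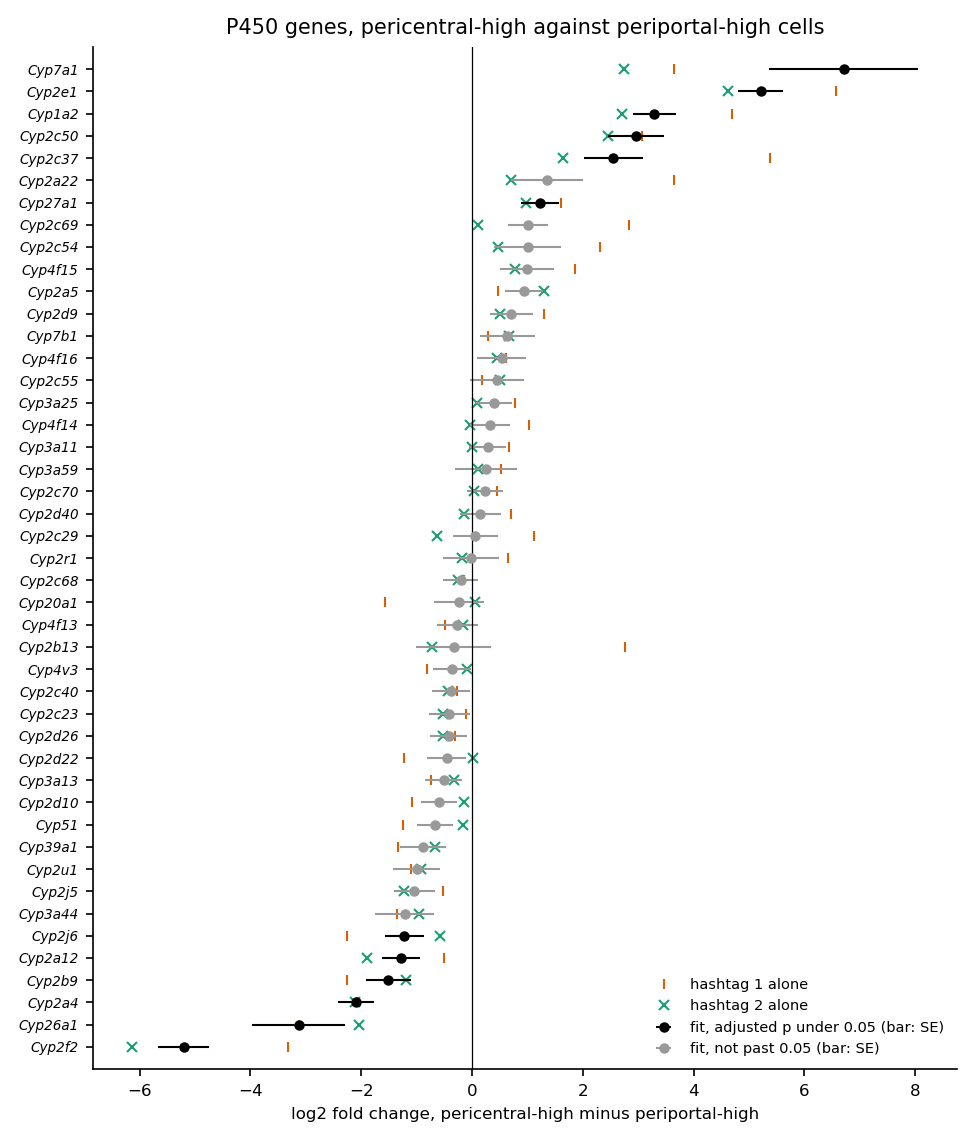
Log2 fold change of the 45 tested P450 genes between pericentral-high and periportal-high deep hepatocytes of Nras bins 1 and 2 (circles, with the standard error as bars; black, adjusted p under 0.05), and the log2 ratio in hashtag 1 (bars) and hashtag 2 (crosses) alone. Cyp7a1, Cyp2e1, Cyp1a2, Cyp2c50, Cyp2c37 and Cyp27a1 lie to the right and Cyp2f2, Cyp26a1, Cyp2a4, Cyp2b9, Cyp2a12 and Cyp2j6 to the left of 0.

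The score rose with Nras in hashtag 2 and had no steady direction in hashtag 1. The median pericentral share was 40.4, 48.3, 51.9, 57.5 and 67.2% in bins 1 to 5 of hashtag 2 and 55.2, 45.7, 41.0, 61.9 and 50% in hashtag 1. Both gene lists fell: in hashtag 2 the pericentral list had 976 CPM in bin 1 and 577 CPM in bin 5, and the periportal list 1173 and 323 CPM. With all Nras bins in the classes, 4 P450 genes were higher and 19 lower of 37 tested in pericentral-high cells, against 6.49% and 8.02% of 8732 genes.

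In 556 single hashtag 2 cells of bins 1 and 2, thinned to 10000 UMIs, the 20 most abundant P450 genes were paired. Spearman's rho was 0.53 for Cyp2c70 and Cyp2e1, 0.49 for Cyp2c70 and Cyp2d26, 0.46 for Cyp3a25 and Cyp3a11, 0.42 for Cyp2e1 and Cyp1a2 and −0.16 for Cyp2a4 and Cyp2e1, the lowest. These cells came from 1 mouse and 1 library pool, and the genes had means of 7.58 (Cyp2a4) to 0.27 (Cyp2c40) UMIs per cell, so the values are descriptive.

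Depth was the third axis. Deep and shallow hepatocytes had the same Nras limit, but any Nras UMI puts a shallow cell above it. The shallow cells compared thus had 0 CPM of Nras in each mouse. Deep cells had 8.19, 10.3 and 0 CPM in hashtags 1, 2 and 3. A count of 0 in a shallow cell says less about its Nras level, so the classes were not matched on Nras. At Nras up to 28.7 CPM, 0 of 31 P450 genes were called between deep and shallow hepatocytes (edgeR; 0.0322% of 6209 genes called), with 19 P450 genes and 1241 genes in all at an unadjusted p under 0.05, and DESeq2 called 2. Hashtag 3 entered with 6 deep cells. Without it, 12 P450 genes were higher and 4 lower in deep cells of 38 tested, against 12.9% and 7.57% of 7308 genes. Without barcodes that had 3 or more UMIs of another cell type's markers, which also leaves no deep cells of hashtag 3, 13 were higher and 8 lower of 30, against 24% and 15.6% of 5328 genes (39.6% in either direction).

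Without hashtag 3, Cyp39a1 (log2 fold change 3.29 ± 0.50), Cyp2a4 (2.46 ± 0.21), Cyp51 (2.38 ± 0.16) and Cyp2d10 (2.01 ± 0.14) were higher in deep cells. As for the lobule classes, 2 mice leave 1 residual degree of freedom. In hashtag 3, with 6 deep cells, the log2 ratios of Cyp2a4, Cyp51 and Cyp2d10 were −2.17, −4.68 and −0.32, the opposite direction. Cyp2a4 had 338 and 963 CPM in deep and 90.6 and 179 CPM in shallow cells of hashtags 1 and 2, and Cyp51 149 and 225 CPM against 30.7 and 57.6 CPM. Cyp2c50 (−1.82 ± 0.25), Cyp2c69 (−1.55 ± 0.23), Cyp3a25 (−0.89 ± 0.15) and Cyp2e1 (−0.57 ± 0.13) were lower without hashtag 3. Their log2 ratios in hashtag 3 were −0.34, −1.26, 0.11 and −0.98. Cyp2e1 had 139 and 197 CPM in deep and 226 and 387 CPM in shallow cells, and 198 and 361 CPM in hashtag 3. The median mitochondrial share of the shallow and deep cells compared was 0.788 and 4.38% in hashtag 1, 2.12 and 9.12% in hashtag 2 and 5.94 and 1.44% in hashtag 3. The 7 endothelial markers had 458 CPM in shallow and 73.7 CPM in deep hepatocytes of hashtag 1 and 518 and 14.9 CPM in hashtag 2, at any Nras level. The 5 hepatocyte genes summed to 35656 CPM in all shallow and 81466 CPM in all deep hepatocytes. The part of these measures in the differences was not tested.

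Some P450 genes had a higher CPM outside hepatocytes than in them. Barcodes under the hepatocyte limit were grouped by the marker list with the most UMIs. In 755 barcodes led by endothelial markers, Cyp26b1, a retinoic acid hydroxylase, had 527 CPM (507 to 548) and was detected in 466 barcodes, and Cyp4b1, a fatty acid hydroxylase, had 289 CPM (274 to 305) in 439 barcodes. In deep hepatocytes of hashtags 1, 2 and 3 Cyp26b1 had 0.722, 0.416 and 78.8 CPM and Cyp4b1 1.55, 1.04 and 32.8 CPM, the order of the endothelial marker sums given above. Cyp4f18, which acts on leukotriene B4 in leukocytes, had 98.2 CPM (52.3 to 168) in 46 barcodes led by B cell markers and 35.4 CPM (17.7 to 63.4) in 39 led by Kupffer cell and macrophage markers, against 0.118 CPM in deep hepatocytes. Cyp2s1 had 43.1 CPM from 10 UMIs in 28 barcodes led by stellate markers. Cyp20a1 had 30.0 CPM (25.3 to 35.4) in the endothelial group and 12.7 CPM in deep hepatocytes. Cyp8b1 had 41 UMIs in 30 of 529 barcodes led by dendritic cell markers, 7.80 CPM (5.59 to 10.6), against 0.299 CPM in deep hepatocytes. In the 10 barcodes led by neutrophil markers 1 barcode held 95.8% of the Cyp2a5 UMIs.

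**Figure D4:**
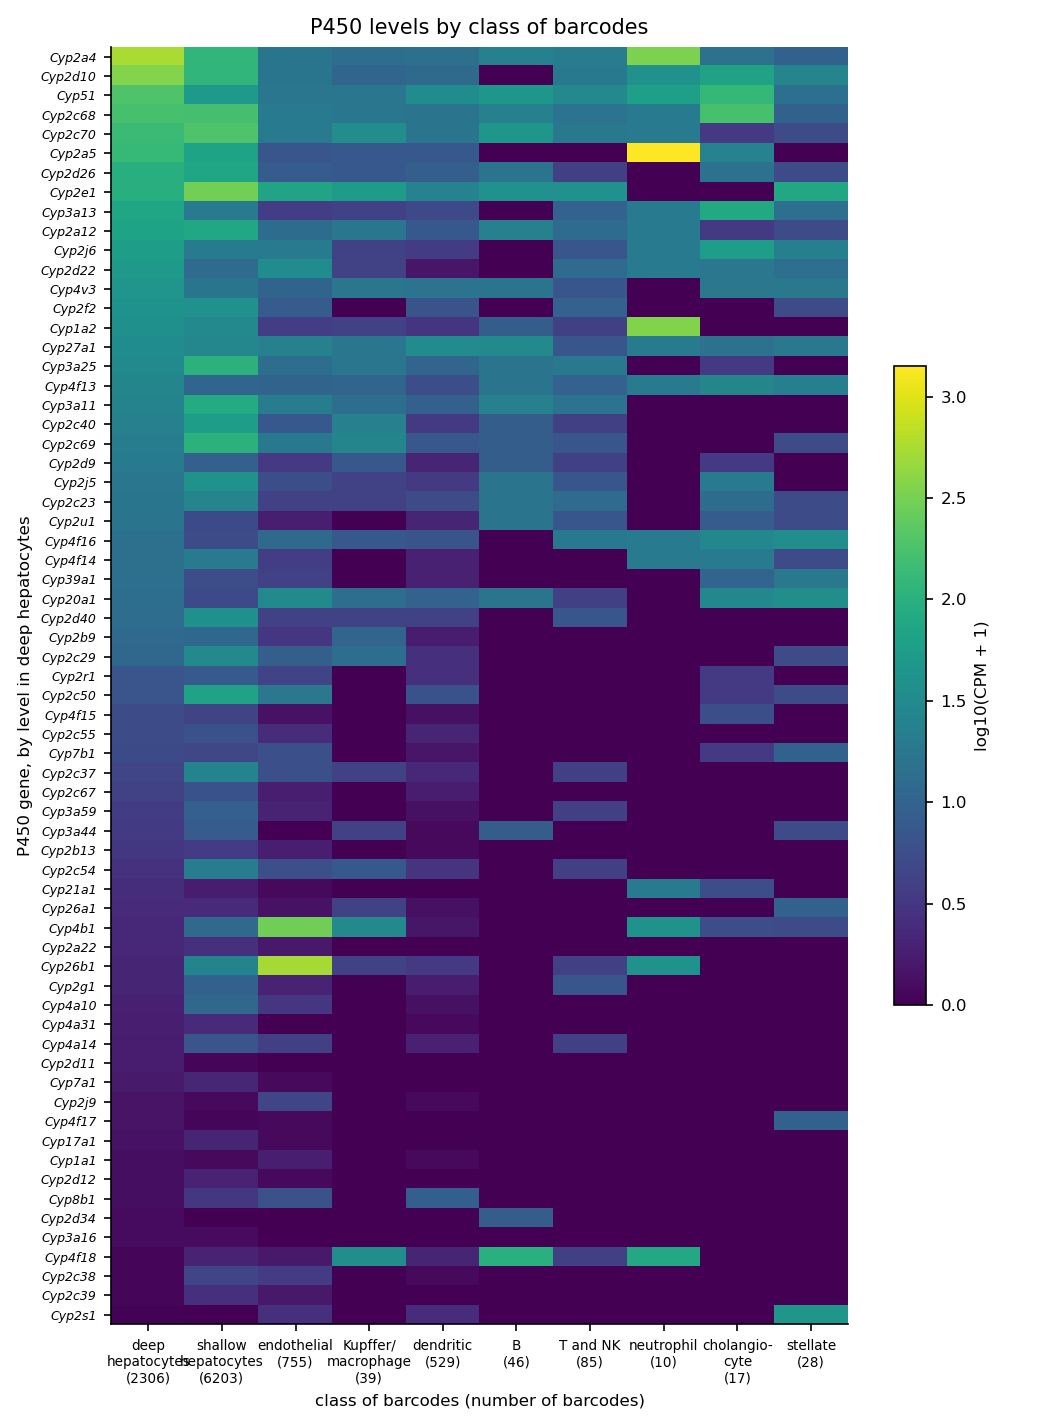
Level of the 66 described P450 genes (rows, ordered by level in deep hepatocytes) in 10 classes of barcodes (columns, with the number of barcodes), as log10 of CPM plus 1. Most genes are highest in the hepatocyte columns, with Cyp26b1 (527 CPM) and Cyp4b1 (289 CPM) highest in the endothelial column.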

How the data were processed

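Single-cell UMI counts of 1 pooled 10x 3′ library (2 lanes, read 2 of 91 bases) and its hashtag library were analysed as deposited. The deposited counts per gene and barcode were made by the authors with Cell Ranger against mm10 (version 2.1.1 in the submitters' processing notes; other sources give others). The members and gene lists were chosen with earlier results of these data known. Barcodes with at least 1000 UMIs, at least 500 genes and at most 20% mitochondrial UMIs were kept. Hashtags were called with HTODemux (Seurat 5.3.0, positive quantile 0.99): 5482 barcodes were singlets, 271 doublets, which entered no test, and 7386 had no call. The libraries shared 13141 barcodes.

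UMIs were summed per mouse and class, with at least 5 cells per sum, and tested with edgeR 4.0.16 (R 4.3.3; filterByExpr, TMM, quasi-likelihood, Benjamini-Hochberg adjustment over all genes, threshold 0.05), with the mouse as a block because the sums compared come from the same animals. P-values measure the spread between sums of few mice in 1 pool. DESeq2 1.42.0 was an alternative. The main edgeR fits for Nras, depth and lobule class were also run on simulated counts. CPM are UMIs per 1000000 UMIs of the sum without Nras and mVenus, with exact Poisson intervals (95%) that cover counting error only. The promoters are RefSeq's (GRCm38.p6), with 50 of the 66 described genes matched.

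Named were the 12 most abundant P450 genes, up to 10 largest called rises and falls per comparison with 1 direction in every mouse, the 5 smallest changes among genes of at least 50 CPM, and a list of textbook members. Other genes, among them the 2c group on chromosome 19, were named after their values were seen. Some items of the gene and motif lists are not reported here.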

Additional observations from a re-analysis of the deposited data

Results flagged for a closer look

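In 6 tested P450 genes the log2 ratio of Nras bin 5 to bin 1 had opposite signs in hashtags 1 and 2, and in none of them was the difference between the mice tested. Cyp4b1 had −2.51 and 1.00 in hashtags 1 and 2, a difference of −3.52. Cyp2u1 had 0.12 and −1.18, a difference of 1.30. The neighbouring Cyp2c67 had 0.68 and −0.34, and Cyp2c68 had 0.46 and −0.51, differences of 1.02 and 0.97. Cyp51 had 0.68 and −0.14, a difference of 0.82, and Cyp4v3 had 0.07 and −0.36, a difference of 0.43. None of the 6 genes was among the 30 called between bins 1 and 5.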

How the results depend on the processing

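Between Nras bins 5 and 1, 30 P450 genes and 2416 of all genes were called. Without the replicate block, that is without pairing the sums by mouse, 25 P450 genes and 1582 genes were called, and the block setting moved the other counts as given below. All genes called were 1139 with a hepatocyte limit of 5% and 1191 with thinned cells, where fewer genes were tested. Leaving out 1 mouse gave 371 (without hashtag 2) to 3122 genes and 9 to 34 P450 genes. In every alternative that tested them, 8 of the 30 genes kept an adjusted p under 0.05. For the step from bin 1 to 2 leaving out 1 mouse gave 0 to 11 genes, and from bin 2 to 3 it gave 0 to 4. From bin 3 to 4, 5 P450 genes were called without scaling, 9 genes and 0 P450 genes without the block, 5 and 0 with thinned cells, and 3 to 302 and 0 to 5 with 1 mouse left out. From bin 4 to 5, 26 genes were called without scaling, 0 and 0 without the block, 36 with thinned cells, and 3 to 140 genes and 0 to 5 P450 genes with 1 mouse left out. Between deep and shallow cells, 14 genes were called without scaling (which shifts the median of all genes to −0.23), 126 genes and 2 P450 genes with DESeq2, 1161 and 17 without a filter, 5 and 0 without the block, 8 without the mitochondrial limit, 2772 and 24 at any Nras level, 2108 and 21 without barcodes with other markers, and 0 to 1499 and 0 to 16 with 1 mouse left out. For the lobule classes, 52 genes and 5 P450 genes were called with DESeq2, 8 and 1 without a filter, 2 and 0 without the block, and 1267 and 23 with all Nras bins. Leaving out hashtag 1 or 2 there could not be fitted, since 1 mouse remained. The sign of single genes changed in 54 values, in 47 of them with both values short of the threshold. Where at least 1 of the values was past it, the reversed values were 0.44 for Cyp1a2 between bins 5 and 1 with a hepatocyte limit of 5%, −0.80 for Cyp2d40 between deep and shallow cells at any Nras level and, with all Nras bins in the lobule classes, −0.65 for Cyp3a11, −0.90 for Cyp3a25, −0.83 for Cyp2d40, −0.89 for Cyp4f14 and −1.10 for Cyp2c70. The cause was not tested.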
